A study of Mus musculus with 2 samples.

Results

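Immunoglobulin variable (V) genes were measured in mouse mammary gland as the expressed copies of germline V segments. The members were taken by name and biotype, as genes named Ighv, Igkv or Iglv followed by a number and annotated as functional immunoglobulin V genes. A total of 213 of the 43346 genes in the gene tables qualified, of which 113 were heavy chain, 97 kappa and 3 lambda V genes. Of 216 annotated genes of that name and biotype, 3 were not analysed here.

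Poly(A) RNA of 2 libraries was sequenced as stranded read pairs of 76 nt, and the labels call the libraries biological replicates 1 and 2 of 1 group. Each was made from mammary gland tissue of C57BL/6J mice, an inbred strain, aged 8 weeks, with RNA of male and female littermates pooled, and the health state is given as unknown. No mutant allele, treatment or contrast is named, so the data answer which V genes the tissue used and how far the replicates differed. Both carry the same donor record, and nothing further says how the pools were separated, so the spread between them may be partly technical. Values are given for replicate 1 and then replicate 2. Summed expected counts over all genes were 56323489 and 42400470 fragments.

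An immunoglobulin heavy chain gene is assembled in a developing B cell by joining 1 V, 1 D and 1 J segment, and a light chain gene by joining 1 V and 1 J segment at the kappa or the lambda locus. The joined V region is spliced to a constant gene, so the V genes seen in RNA reflect the B cells and antibody-secreting plasma cells of a tissue. V genes fall into families by sequence likeness, and the number after Ighv or Igkv names the family. The mammary fat pad holds a lymph node, and the gland itself houses B cells and plasma cells.

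The coding end of a V gene carries the cysteine that closes the variable domain fold, and the bases from there to the end of the segment are its germline contribution to the third hypervariable loop. The 12 members chosen were among the most used of their locus or differed in use by more than 2-fold beyond counting error. The second choice was limited to genes with at least 20 fragments over both libraries. The last 90 coding bases of each are shown. They are from GENCODE M21 on GRCm38, written 5′ to 3′ on the coding strand, with capitals from the last in-frame cysteine codon to the segment's end. The first 4 are heavy chain genes, in which few bases follow the cysteine codon.
Ighv2-9, chr12:113879096-113879185, minus strand: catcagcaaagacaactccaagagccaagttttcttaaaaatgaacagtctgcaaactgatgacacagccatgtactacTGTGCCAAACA
Ighv14-1, chr12:113931953-113932042, minus strand: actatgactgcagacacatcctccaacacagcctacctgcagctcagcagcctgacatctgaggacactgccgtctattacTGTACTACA
Ighv1-26, chr12:114788372-114788461, minus strand: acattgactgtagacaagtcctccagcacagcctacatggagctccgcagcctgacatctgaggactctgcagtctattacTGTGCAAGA
Ighv8-5, chr12:115067560-115067649, minus strand: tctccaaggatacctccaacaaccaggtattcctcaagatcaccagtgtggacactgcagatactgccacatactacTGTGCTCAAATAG
The next 5 are kappa genes, whose segments run further past the cysteine.
Igkv10-96, chr6:68631963-68632052, minus strand: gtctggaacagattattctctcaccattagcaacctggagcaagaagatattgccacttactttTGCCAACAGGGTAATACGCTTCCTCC
Igkv4-59, chr6:69438218-69438307, minus strand: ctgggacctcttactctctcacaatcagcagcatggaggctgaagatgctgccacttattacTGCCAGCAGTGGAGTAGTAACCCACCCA
Igkv3-4, chr6:70672288-70672377, plus strand: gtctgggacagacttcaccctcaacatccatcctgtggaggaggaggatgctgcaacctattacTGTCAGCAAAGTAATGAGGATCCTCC
Igkv1-88, chr6:68862265-68862354, minus strand: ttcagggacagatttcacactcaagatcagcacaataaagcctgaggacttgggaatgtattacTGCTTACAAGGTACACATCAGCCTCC
Igkv4-74, chr6:69184826-69184915, minus strand: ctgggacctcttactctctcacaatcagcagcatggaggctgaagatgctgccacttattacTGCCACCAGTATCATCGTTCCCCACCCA
The last 3 are all the lambda V genes.
Iglv1, chr16:19085017-19085106, minus strand: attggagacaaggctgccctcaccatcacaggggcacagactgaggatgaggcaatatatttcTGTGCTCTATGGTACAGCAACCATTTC
Iglv2, chr16:19260401-19260490, minus strand: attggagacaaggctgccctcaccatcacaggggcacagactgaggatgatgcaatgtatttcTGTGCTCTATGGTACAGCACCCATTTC
Iglv3, chr16:19241207-19241296, minus strand: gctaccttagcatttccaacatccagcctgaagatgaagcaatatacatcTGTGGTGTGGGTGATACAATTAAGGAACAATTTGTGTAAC

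Among the 113 heavy V genes, 63 had exactly 6 bases after this codon, and 44 ended in the same TGTGCAAGA as Ighv1-26. Kappa V genes most often had 23 bases after it (65 of 97), and the ending most common among them was shared by 4 genes. Igkv4-59 and Igkv4-68 were identical over all 90 bases. Over their whole coding sequence Iglv1 and Iglv2 were 96.9% identical, against 55.4% for Iglv1 and Iglv3, and Igkv10-96 and Igkv10-94 were 95.4% identical.

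Such likeness limits what a count of a single V gene means, because paralogs share reads. Of the members, 43 heavy, 33 kappa and 1 lambda genes shared no stretch of 76 nt, the read length, with another annotated transcript. Ighv1-62-2 and Ighv1-71, which share the largest part of such stretches, were 99.7% identical, and all of their fragments (7 and 20) were assigned to Ighv1-62-2, with 0 in both libraries for Ighv1-71. The authors' posterior standard deviation of a member's count reached 2 fragments at most, and 36 of 38 V families summed to whole numbers of fragments within 0.02, which leaves few fragments split between families. Reads changed by somatic mutation, or crossing into D and J segments, need not align to a germline V segment at all. Fragments had few places to fall within these short genes: at a median length of 351, 348 and 351 nt for heavy, kappa and lambda, the median effective length in replicate 1 was 141, 138 and 141 nt.

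Heavy V genes occupied chromosome 12 from 113578504 to 116000461 on mm10, kappa V genes chromosome 6 from 67555497 to 70704177, and lambda V genes chromosome 16 from 19085017 to 19260859. Kappa V genes gave the largest part of the V signal in both replicates. They summed to 459 and 461 TPM (a length-scaled measure of transcript abundance), a mean of 459.9 ± 1.67 TPM (SD, n = 2). Heavy V genes summed to 179 and 260 TPM, a mean of 219.5 ± 56.9 TPM (SD, n = 2), and lambda V genes to 42.67 and 42.75 TPM. In TPM the heavy chain sum was thus the one that set the replicates apart, while both light chain sums lay close together. This picture depended on the unit and the scaling, as the count ratios below show.

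In fragments, the heavy genes had 1182 and 1192, the kappa genes 2686 and 1889 and the lambda genes 268 and 185. Scaled by all counts, the log2 ratio of replicate 2 over replicate 1 was 0.42 for heavy genes (95% Clopper-Pearson interval 0.30 to 0.54), -0.10 for kappa genes (-0.18 to -0.01) and -0.13 for lambda genes (-0.40 to 0.15). These intervals, and all those below, cover counting error only, since no molecular identifiers are named and there is 1 library on each side. The heavy and kappa intervals did not overlap, and none lay beyond 2-fold. Scaling moved these values together. The median of all genes was -0.12 by total counts, -0.04 with edgeR's TMM factors and -0.01 with DESeq2 size factors. The kappa value was 0.02 with DESeq2 size factors. With totals free of mitochondrial and muscle genes the median of all genes was -0.28. Heavy, kappa and lambda sums then stood at 0.27, -0.25 and -0.28. The direction of the kappa sum therefore depended on the scaling, whereas the heavy sum was higher in replicate 2 under each scaling tried.

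Within the V fragments no scaling is needed. Heavy genes took 28.6% (27.2 to 29.98%, exact binomial) and 36.5% (34.8 to 38.2%) of them, kappa genes 64.9% (63.5 to 66.4%) and 57.8% (56.1 to 59.5%), and lambda genes 6.48% (5.75 to 7.27%) and 5.66% (4.90 to 6.51%). The heavy and kappa shares differed beyond counting error between replicates, and the lambda shares overlapped. Light chain fragments outnumbered heavy ones 2.50 to 1 (2.34 to 2.68) and 1.74 to 1 (1.62 to 1.87). By contrast, the ratio of kappa to lambda was 10.02 (8.84 to 11.4) and 10.2 (8.78 to 11.9), so the balance of the light chains did not differ detectably at this depth.

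**Figure D1:**
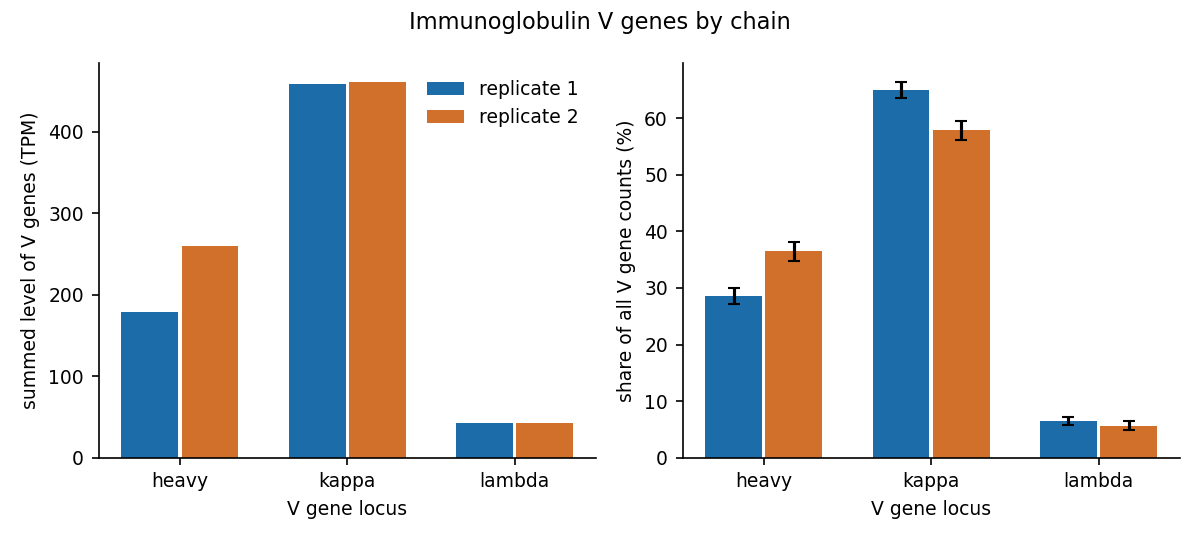
Summed TPM of the V genes of each locus (left, no error bars because each bar is 1 library) and the share of all V fragments from each locus (right, bars are exact 95% binomial intervals) in replicates 1 and 2. The heavy share was 28.6% and 36.5%, and the kappa share 64.9% and 57.8%.

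The heavy difference was spread over many genes. Of the 37 heavy genes with at least 20 fragments over both libraries, 25 were higher and 12 lower in replicate 2 when scaled by all counts, with a median log2 ratio of 0.34. Of 47 such kappa genes, 18 were higher and 29 lower, with a median of -0.10. The split moved with the scaling, to 26 higher and 11 lower heavy and 24 higher and 23 lower kappa genes with DESeq2 size factors, and to 21 and 16 and to 16 and 31 with totals free of mitochondrial and muscle genes. The median over 17307 genes with as many fragments was -0.12. Without Ighv2-9, the heavy gene with the most fragments, the heavy log2 ratio was 0.37, and without Ighv2-5 as well it was 0.34.

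Base composition moved with the replicates across the transcriptome. Over 15143 protein-coding genes, the Spearman rho between GC content and the log2 ratio was 0.56. It was 0.43 over the 87 V genes with at least 20 fragments, 0.36 over the 37 heavy and 0.38 over the 47 kappa genes. These genes share both libraries. The median GC content of heavy, kappa and lambda V genes was 49.8%, 48.3% and 48.1%. After removing the median log2 ratio of genes of like GC content, the heavy, kappa and lambda sums stood at 0.67, 0.29 and 0.34, so the heavy genes were still the highest of the 3 loci. The constant genes Ighm, Ighd, Igkc and Iglc2 stood at 0.39, 0.29, 0.23 and 0.295 on that scale.

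Constant genes give another reading of the same loci. Ighm, the constant gene of IgM, stood at 491 and 632 TPM, and its log2 count ratio was 0.26. Ighd, the constant gene of IgD, which naive B cells carry beside IgM, reached 162 and 142 TPM, and its log2 ratio of counts was -0.27. Ighg1, the constant gene of the switched isotype IgG1, had 1091 and 2201 fragments, and its log2 ratio of 1.42 (1.32 to 1.53) was the only one of 8 heavy constant genes beyond 2-fold. Over all genes, 8.25% lay beyond 2-fold toward replicate 2. Igha, the constant gene of IgA, stood at 31.3 and 40.75 TPM, and 7 of the 8 genes had a positive ratio. The kappa constant gene Igkc stood at 1388 and 1355 TPM (log2 count ratio -0.16), and Iglc2 of the lambda locus at 89.4 and 85.9 TPM (-0.15). By total counts, heavy constant genes except Ighd thus had the same direction as heavy V genes. Both light constant genes had small negative ratios on that scale, as the light V sums had. With the GC trend removed, Ighd and both light constant genes had positive ratios instead.

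Summed V gene TPM amounted to 24.6% and 28.2% of the heavy constant sum, 33.0% and 34.02% of Igkc and 47.7% and 49.8% of Iglc2. Each V sum was thus below its constant sum, although each antibody chain carries 1 V and 1 constant part. The lambda figures leave out constant genes other than Iglc2, which were not analysed here. All 9 J segments measured were at 0 in both libraries. J segments are shorter than V genes, and an entry shorter than a fragment can be assigned none. These values of 0 therefore do not show that J segments were absent from the RNA.

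Other genes of the B lineage did not move as 1 block. Of 7 B cell markers, Cd79a (169 and 379.5 TPM), a signalling subunit of the B cell receptor, and Pax5 (9.75 and 49.8 TPM), the factor that keeps B cell identity, were beyond 2-fold higher in replicate 2, and Cd79b, the other signalling subunit, stood at 104 and 149.9 TPM (0.45). Against this, 8.25% of all 17307 genes with at least 20 fragments passed 2-fold toward replicate 2 and 10.1% toward replicate 1. Ms4a1, which encodes CD20, and Cr2, the complement receptor, had negative ratios of -0.42 and -0.62. Summed over the 7, the level was 376 and 684.5 TPM, and the median log2 count ratio was 0.45. In bulk tissue, fewer cells of a type and less RNA per cell cannot be told apart.

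Of 8 plasma cell markers, none was beyond 2-fold, the median log2 ratio was 0.03 and the sums were 229 and 220 TPM. By log2 ratio, 4 of the 8 were higher in replicate 2. Xbp1, a secretory factor that other secretory cells also express, stood at 149 and 117 TPM, and Sdc1, the surface proteoglycan CD138 that epithelium also carries, at 39.4 and 56.6 TPM (log2 count ratio 0.59). Jchain, which links IgM and IgA into polymers, stood at 16.6 and 14.9 TPM, and Irf4, a transcription factor of plasma cells, at 10.9 and 10.3 TPM. The octamer factors, which act on the octamer motif of V gene promoters, differed more. Pou2f2 stood at 7.38 and 36.2 TPM and its coactivator Pou2af1 at 20.02 and 62.3 TPM. Both were beyond 2-fold toward replicate 2, as were 8.25% of all genes with at least 20 fragments. Pou2f1, the widely expressed member, stood at 9.79 and 19.03 TPM and was not. The part of these genes in the heavy V difference was not tested.

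Transcripts of the V(D)J recombinase were scarce. Rag1, a recombinase subunit, had 68 and 11 fragments, the only 1 of 9 tested members of that list beyond 2-fold, where 10.1% of all genes lay beyond 2-fold toward replicate 1. Rag2, its partner, had 1 and 0 fragments. Rag1 stood at 0.25 and 0.06 TPM. Of the germinal centre genes, the death receptor gene Fas was beyond 2-fold toward replicate 1 (244 and 67 fragments).

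Other tissue components also differed between replicates. Of 5 T cell markers none was beyond 2-fold, with sums of 85.5 and 116 TPM. Lymph node stroma genes summed to 1090.5 and 1314 TPM, with 1 of 4 beyond 2-fold toward replicate 2, where 8.25% of all genes were. That gene was the chemokine gene Ccl19, at 163 and 424 TPM, while Glycam1, the most abundant of the list, stood at 683 and 559.5 TPM (log2 count ratio -0.38), Ccl21a at 228 and 308 TPM and Cxcl13 at 16.8 and 22.04 TPM. The luminal epithelial keratins Krt8, Krt18 and Krt19, the defining markers of the labelled tissue here, were present at a summed 692 and 1189.6 TPM. The 3 skeletal muscle genes summed to 19089 and 8.82 TPM, all beyond 2-fold higher in replicate 1, where 10.1% of all genes were. Taking muscle and mitochondrial genes together out of the totals lowered the chain ratios, as given above. Beyond that change of scaling, the part of these components in the V gene values was not tested.

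Most members were low. More than 3 fragments in a library was taken as detected, and 121 of 213 members passed in both libraries: 55 of 113 heavy, 63 of 97 kappa and all 3 lambda genes. These 121 held 95.1% and 96.0% of V fragments. A further 20 passed in replicate 1 alone and 9 in replicate 2 alone, 63 passed in neither, and 33 had 0 in both (23 heavy, 10 kappa). Of the members at 0, 9 were of Ighv1, the largest heavy family, and 3 each of Ighv6 and Ighv8. A count of 0 was read as at or under the floor of 3 fragments, not as absence. The median member had 5 and 4 fragments in the heavy locus and 12 and 7 in the kappa locus, or 0.83 and 0.96 TPM against 2.37 and 1.79 TPM.

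Use was spread widely in both loci. The effective number of genes, the exponential of the Shannon entropy of use within the locus, was 51.0 and 50.8 for the heavy locus and 49.9 and 44.8 for the kappa locus. The 10 most used heavy genes of each library took 41.9% and 40.6% of heavy fragments, and 8 were among the 10 in both libraries. For kappa these figures were 39.6%, 45.2% and 6 genes. The most used gene took no more than 7.89% of its locus in either library, outside the 3-gene lambda locus.

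Family use was read as a share of the locus, so that scaling drops out, but the trend with GC content does not. Of 38 families, 24 had at least 20 fragments over both libraries, and 0 of these had an interval wholly beyond 2-fold in either direction (0% in each). For 15 of the 24 the interval of the log2 ratio included 0, which is no sign that their use was equal. Its lower end was above 0 for Ighv2, Igkv1, Igkv3 and Igkv4, whose median GC content was 51.2%, 46.6%, 51.3% and 49.7%. Its upper end was below 0 for Ighv9, Igkv5, Igkv6, Igkv10 and Igkv14, at 49.3%, 47.0%, 48.5%, 46.1% and 46.4%. The GC trend was not removed from the use of families or single genes, and its part in their differences was not tested. In all, 9.99% of heavy and 15.02% of kappa use lay in different families between replicates.

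Ighv1, the largest heavy family with 53 members, took 50.5% and 48.3% of heavy fragments, close to its 46.9% of the genes. Ighv2 followed at 12.4% and 18.9%, from 147 and 225 fragments, a log2 ratio of 0.60 (0.30 to 0.91). Its share intervals (10.6 to 14.5% and 16.7 to 21.2%) did not overlap. With Ighv2-9 left out the rest of the family took 8.38% and 11.2%, so the direction did not rest on that gene. Ighv14, Ighv8, Ighv5 and Ighv3 took between 3.86% and 10.4% in either replicate, and their intervals overlapped between replicates. Ighv9 had only 22 and 10 fragments.

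Among kappa families, 7 of 13 had an interval on 1 side of 0, against 2 of 8 heavy families, which rest on fewer fragments. The share of all genes with an interval on 1 side of 0 was not counted. These counts are therefore not read as more than the ordinary difference between the 2 libraries. Igkv4, with 26 members the largest, took 26.7% and 32.4% (log2 ratio 0.28, 0.12 to 0.44), and of its members other than Igkv4-74, 15 had higher use in replicate 2 and 8 lower. Igkv6 took 20.7% and 17.2% (-0.27, -0.48 to -0.07). Igkv10 had 281 and 97 fragments, 10.5% and 5.14% of the locus, and a log2 ratio of -1.03 (-1.37 to -0.69). All 3 of its members were lower in replicate 2: Igkv10-96 had 195 and 81 fragments, Igkv10-94 had 74 and 15, and Igkv10-95 had 12 and 1. Without Igkv10-96, its most used member, the family had 86 and 16 fragments, a log2 ratio of -1.92 when the locus total was kept.

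In Igkv1 and Igkv3 a single gene carried the difference. Igkv1 took 8.64% and 10.9% (0.34, 0.06 to 0.61), but without Igkv1-88 its other members took 7.22% and 5.66%, the opposite direction, with a log2 ratio of -0.35. Igkv3 took 12.99% and 18.9% (0.54, 0.32 to 0.76), and without Igkv3-4 10.2% and 11.0%, a log2 ratio of 0.10. Igkv14 (100 and 32 fragments) and Igkv5 (93 and 31) had log2 ratios of -1.14 (-1.76 to -0.55) and -1.08 (-1.71 to -0.48). These leave-outs were chosen after the values were seen.

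**Figure D2:**
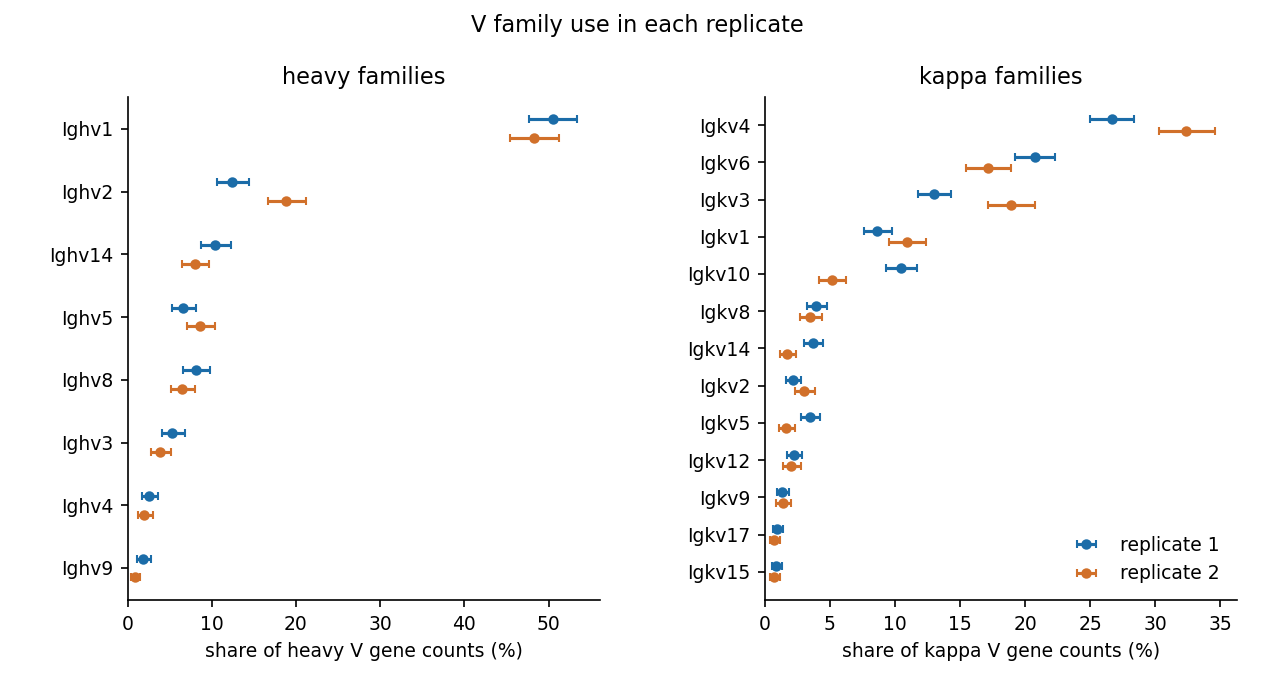
Share of heavy (left) and kappa (right) V fragments taken by each V family with at least 20 fragments, in replicates 1 and 2, with exact 95% binomial intervals. Ighv2 (12.4% and 18.9%), Igkv3 (12.99% and 18.9%) and Igkv10 (10.5% and 5.14%) are among the families whose intervals do not overlap, and Ighv1 leads the heavy locus in both.

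Among single genes, 1 of 37 heavy genes (2.7%) and 3 of 47 kappa genes (6.38%) had an interval of use wholly beyond 2-fold, the heavy gene toward replicate 1 and the kappa genes toward replicate 2. None of the 3 lambda genes did. Scaled by all counts instead, 6 of 87 V genes were beyond 2-fold, 1 toward replicate 1 and 5 toward replicate 2, against 18.3% of all 17307 genes in both directions together. These were Igkv10-94 toward replicate 1 and Igkv3-4, Igkv1-88, Igkv4-74, Ighv1-5 and Ighv1-15 toward replicate 2, and Ighv8-5 was not among them. Depth differs between the sets, as the tested V genes had a median of 54 fragments and all tested genes 1392. Over the 4565 genes in the V genes' range of 20 to 276 fragments, the share was 20.2%, made up of 12.8% toward replicate 1 and 7.4% toward replicate 2. For 27 heavy and 31 kappa genes the interval of use included no change.

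Igkv3-4 lies close to the J segments, being gene 4 in order from them (chr6:70671788-70672377), and had 74 and 149 fragments. It stood at 11.5 and 33.4 TPM and took 2.76% and 7.89% of the kappa locus, rank 9 in replicate 1 and rank 1 in replicate 2. The log2 ratio of use was 1.52 (1.11 to 1.94). Its neighbour Igkv3-5, 91.9% identical to it, had 54 and 68 fragments (0.84, 0.30 to 1.38), and Igkv3-2, also nearby, had 74 and 30 (-0.80, -1.46 to -0.16). Genes of 1 family and 1 stretch of the locus therefore differed in opposite directions.

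Igkv1-88 (chr6:68862265-68863031) had 38 and 99 fragments, at 5.81 and 21.7 TPM. It took 1.41% and 5.24% of kappa fragments, and the log2 ratio was 1.89 (1.34 to 2.47). It shares no exact 76-nt stretch with another transcript of GENCODE M21. How reads with mismatches were placed is not known. Igkv4-74 (chr6:69184826-69185397) had 11 and 34 fragments, at 1.73 and 7.67 TPM, and a log2 ratio of 2.14 (1.12 to 3.27). It shares 25.4% of its 76-nt stretches with 9 other genes.

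The heavy gene Ighv8-5 (chr12:115067560-115068002) had 17.99 and 2.01 fragments, with a log2 ratio of use of -3.18 (-6.33 to -1.12). Scaled by all counts its ratio was -2.76 (-5.91 to -0.70), which is not wholly beyond 2-fold. Its rounded sum of 20 fragments is the least that was tested, and its count in replicate 2 was under the floor of 3. It shares 17.7% of its 76-nt stretches with 2 other genes, and the authors' posterior standard deviation in replicate 1 was 0.76 fragments for it and for Ighv8-8. Ighv8-8 itself had 46.0 and 49.99 fragments, and the Ighv8 family as a whole took 8.12% and 6.46% of the locus.

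**Figure D3:**
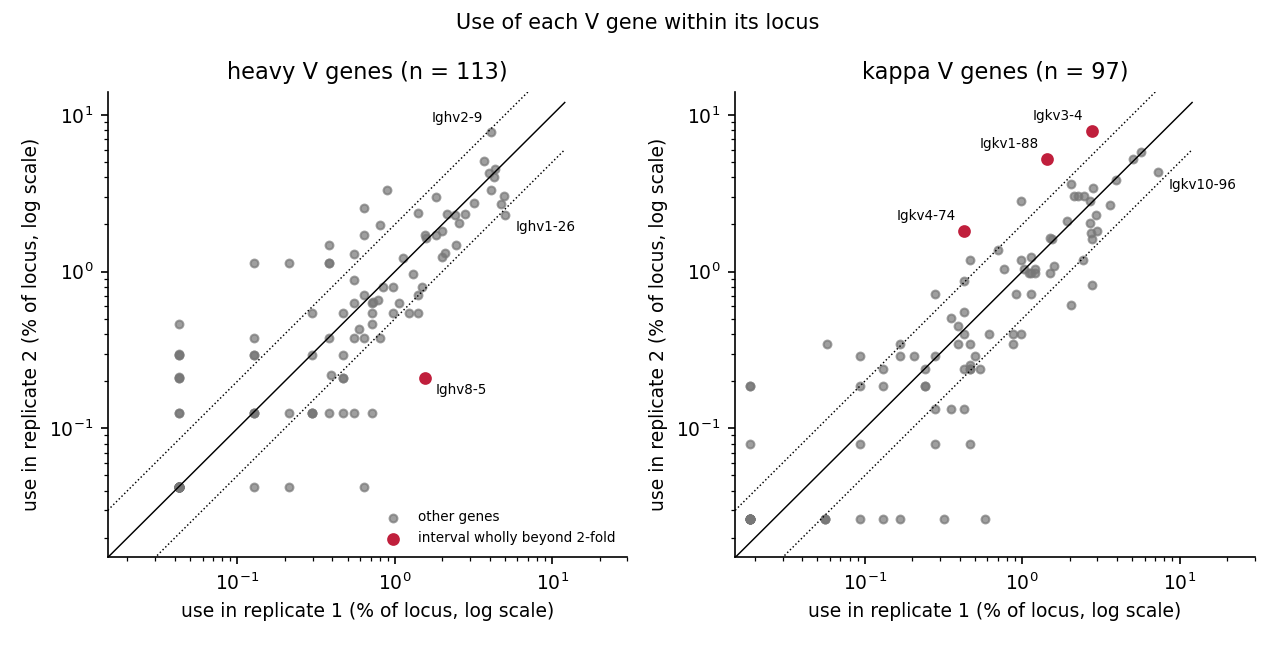
Use of each heavy (left) and kappa (right) V gene as a percent of its locus in replicate 1 (x) and replicate 2 (y), log scales, with 0.5 fragments added to each gene. The solid line marks equal use and the dotted lines 2-fold. The 4 red points are genes with at least 20 fragments whose interval lies wholly beyond 2-fold: Ighv8-5, Igkv3-4, Igkv1-88 and Igkv4-74.

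The most used heavy genes were shared by the replicates with changes of order. Ighv2-9 had 48 and 92 fragments, at 7.34 and 20.2 TPM, and was first in replicate 2 with 7.72% of the locus and a log2 ratio of use of 0.93 (0.41 to 1.46). Ighv1-26 led replicate 1 with 59 fragments and had 27 in replicate 2 (-1.14, -1.85 to -0.46). Both intervals stayed on 1 side of 0 without passing 2-fold. Ighv14-1 had 51 and 53.3 fragments and Ighv14-3, 96.3% identical to it, 55 and 31.7 (-0.79, -1.47 to -0.14), so this pair was level in replicate 1 and apart in replicate 2.

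Of the other heavy genes among the 10 with the highest mean count, Ighv1-50 had 57.6 and 35.9 fragments, with an interval of -1.34 to -0.08. Ighv2-5, Ighv1-7, Ighv8-8, Ighv1-55 and Ighv3-6 had between 32 and 60.5 fragments in either library, and the intervals of all 5 included 0. Their log2 ratios of use ranged from -0.31 for Ighv1-55 to 0.47 for Ighv2-5.

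In the kappa locus Igkv10-96 led replicate 1 with 195 fragments, 33.1 TPM and 7.26% of use, and had 81 fragments, 19.8 TPM and 4.29% in replicate 2 (-0.76, -1.15 to -0.38). Igkv4-59 was second in both, with 152 and 109.6 fragments, 24.8 and 25.8 TPM and 5.65% and 5.80% of use (0.04, -0.33 to 0.40). Igkv6-23 took 5.03% and 5.18% (0.05, -0.34 to 0.43). Igkv4-55, Igkv6-17, Igkv3-12, Igkv6-25 and Igkv4-68 took between 2.46% and 3.91% in either library, each with an interval that included 0. Igkv4-59 and Igkv4-55, 95.2% identical, had intervals on both sides of 0, whereas those of Igkv10-96 and Igkv10-94 (-2.70 to -0.98) lay below it.

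The 3 lambda genes kept 1 order in both replicates. Iglv1 had 127 and 109 fragments, 47.4% (41.3 to 53.6%) and 58.9% (51.5 to 66.1%) of lambda use. Iglv3 had 103 and 54 fragments, 38.4% and 29.2%, and Iglv2 had 38 and 22, 14.2% and 11.9%. The intervals of their log2 ratios (-0.07 to 0.69, -0.90 to 0.09 and -1.08 to 0.54) all included 0. Iglv1 and Iglv3 had overlapping shares in replicate 1 (41.3 to 53.6% and 32.6 to 44.5%) and separate ones in replicate 2 (51.5 to 66.1% and 22.8 to 36.3%).

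**Figure D4:**
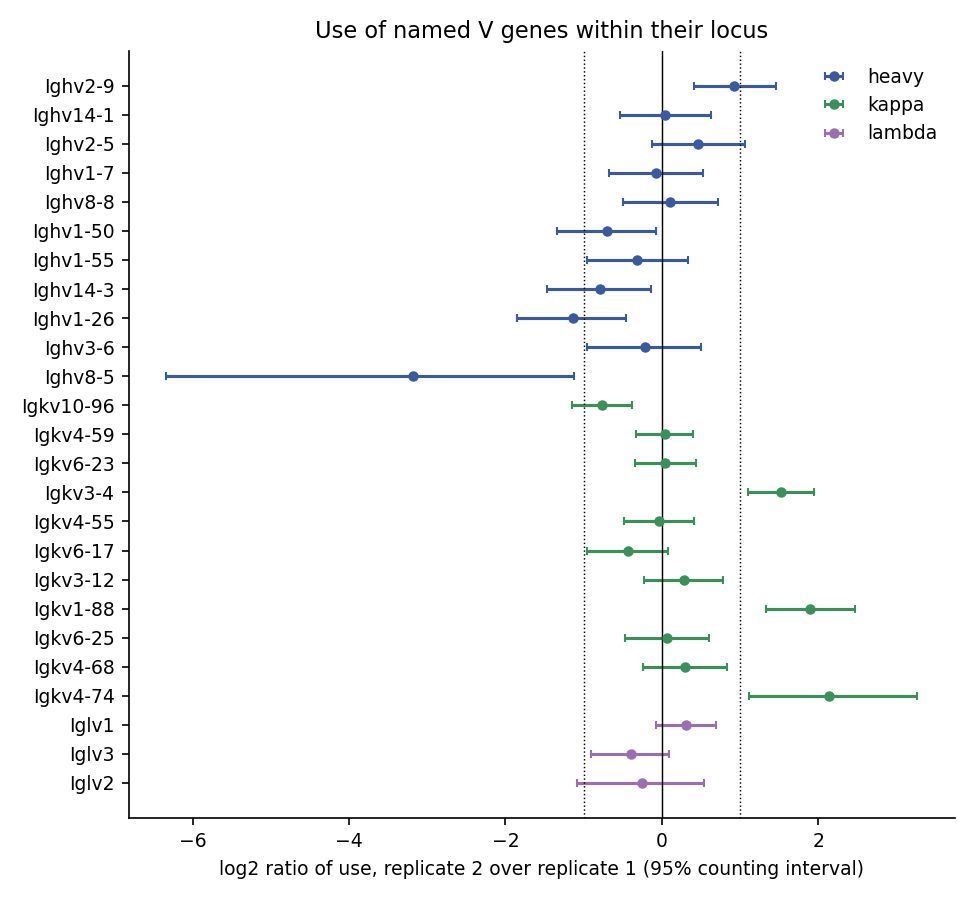
Log2 ratio of use within the locus, replicate 2 over replicate 1, with 95% counting intervals, for the 10 heavy and 10 kappa V genes with the highest mean count, the 3 lambda genes and genes beyond 2-fold. Dotted lines mark 2-fold. Only Ighv8-5 (-3.18), Igkv3-4 (1.52), Igkv1-88 (1.89) and Igkv4-74 (2.14) lie wholly outside them.

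Some members were seen in 1 replicate only, or nearly so. Igkv7-33, the sole member of its family, had 15 and 0 fragments, and the upper end of its interval of log2 use was -1.34, but its sum was below the 20 fragments required. Ighv7-3 had 2 and 13 and Ighv5-12 had 1 and 13, the reverse direction. Igkv4-81 had 8 and 0, and Ighv3-3 had 7 and 0. These were chosen after their values were seen, and each rests on few fragments.

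Across genes, log2 use correlated between replicates with Pearson r 0.61 and Spearman rho 0.70 over 71 heavy genes, and 0.77 and 0.82 over 76 kappa genes above the floor in either library. The genes of a locus share both libraries and their depth. As a share, 23.3% of heavy and 22.0% of kappa use lay on different genes in the replicates. T cell receptor V genes, counted the same way, gave r 0.56 over 48 Trav genes and 0.77 over 16 Trbv genes, with 31.6% and 15.01% of use on different genes. None of the 21 Trav and 11 Trbv genes with at least 20 fragments was beyond 2-fold in use (0% and 0%). Few genes were tested, and Trav held 601 and 453 fragments and Trbv 698 and 587, fewer than the heavy or kappa locus. The 0% is therefore not read as steadier use than in the immunoglobulin loci.

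Position in the locus was read in 4 blocks of near-equal gene number, counted from the J segments outward. The nearest block of heavy genes, 149.6 to 631 kb from the J segments, took 32.6% (29.9 to 35.3%) and 38.0% (35.2 to 40.8%) of heavy fragments from 28 of 113 genes. The second block took 16.3% and 16.2%, the third 29.4% and 24.7% and the last 21.7% and 21.1%. The nearest and the third block overlapped in replicate 1 (the third ran from 26.9 to 32.1%) and were apart in replicate 2 (22.3 to 27.3%). Without Ighv2-9 the nearest block took 29.7% and 32.8% and the third 30.7% and 26.8%, so the nearest no longer led in replicate 1.

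In the kappa locus the nearest block, 19.4 to 579 kb away, took 33.1% (31.3 to 34.9%) and 35.7% (33.5 to 37.9%). Without Igkv3-4 it took 31.2% and 30.2%, the opposite direction. The second block took 26.02% (24.4 to 27.7%) and 23.1% (21.2 to 25.05%), the third 16.9% (15.5 to 18.4%) and 23.5% (21.6 to 25.4%) and the last 24.0% (22.4 to 25.6%) and 17.8% (16.1 to 19.6%). The third and the last block thus differed between replicates beyond counting error, in opposite directions. Without Igkv1-88 the third block took 15.7% and 19.2%, and without Igkv10-96 the last took 18.02% and 14.2%, next to 18.2% and 24.5% for the third. Kappa genes lie in both orientations, and those opposite to the J segments, which rearrange by inversion, took 63.3% (61.4 to 65.1%) and 61.9% (59.7 to 64.1%) from 61 of 97 genes. Those in the same orientation, 36 genes, took 36.7% and 38.1%, and these shares overlapped between replicates.

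**Figure D5:**
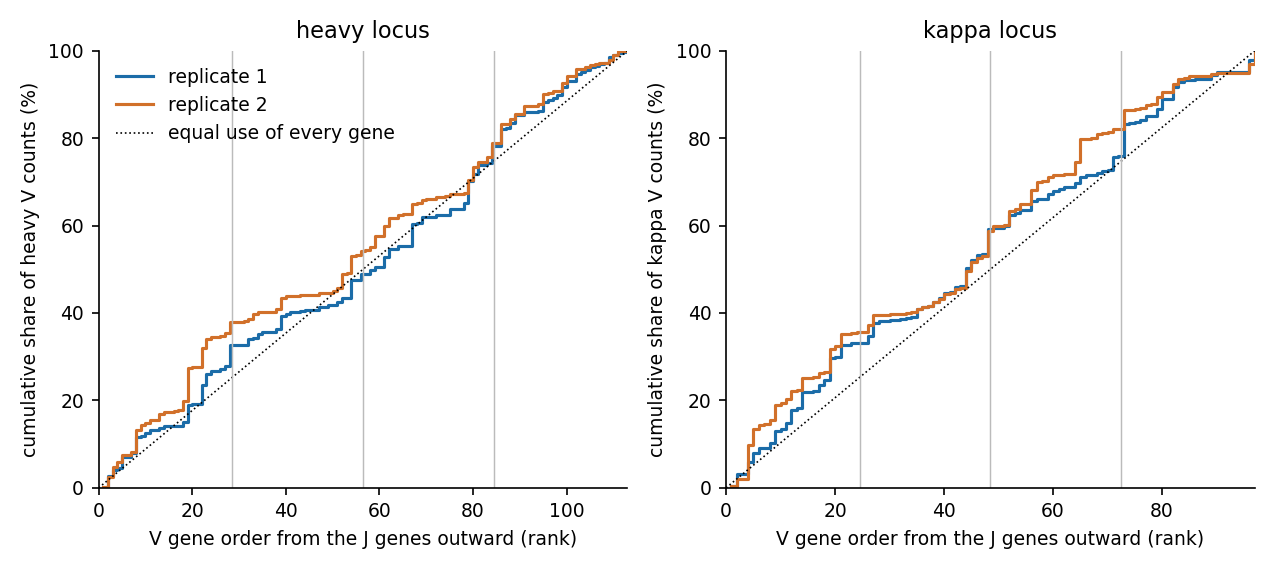
Cumulative share of heavy (left) and kappa (right) V fragments with genes in order from the J segments outward, in replicates 1 and 2. Grey lines divide the genes into 4 blocks and the dotted line marks equal use. The nearest block reaches 32.6% and 38.0% in the heavy and 33.1% and 35.7% in the kappa locus, and single steps in the kappa curves are Igkv3-4, Igkv1-88 and Igkv10-96.

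V pseudogenes gave a background for these counts. The 77 entries annotated as immunoglobulin V pseudogenes held 31.1 and 38.7 fragments, 0.746% and 1.17% of all V fragments, and 68 were at 0 in both libraries. The highest were Ighv1-14, with 21 and 12 fragments, Ighv3-2 with 5 and 14 and Ighv4-2 with 1.1 and 9. Ighv1-14 was thus above the median functional heavy gene, which had 5 and 4 fragments.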

How the data were processed

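The deposited gene tables of both libraries were the starting point, and their text notes name mm10 and GENCODE M4. The authors' values are, per the file headers, expected counts and TPM per gene, with posterior mean counts and their standard deviations. Which aligner and quantifier were run is not given in the sources used here. Expected counts were rounded for intervals. Names, biotypes, coordinates and sequences came from GENCODE M21 (GRCm38), which named 42462 of 43346 genes. Spike-in entries and entries with a number for a name stayed out of totals, which were 56323489 and 42400470 fragments. The members and the 12 gene lists were chosen with earlier results of these data known. Results of some list genes are not reported here.

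Ratios of replicate 2 over replicate 1 were scaled by total counts (levels) or by the locus total (use), with 95% Clopper-Pearson intervals. A gene or family lay beyond 2-fold where its whole interval did, given at least 20 fragments over both libraries. The floor was 3 fragments. Position ran from the J segments by gene order. There is 1 group, so no test between groups was made and no p-value is given.

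Named genes were the 10 with the highest mean count in the heavy and kappa loci, every lambda gene, up to 3 genes per direction and locus beyond 2-fold, families with at least 5% of a locus, and up to 4 members of each list by mean TPM. Others were named after their values were seen. Alternatives were other scalings, units, filters, added counts, pseudogenes included, the highest gene of each locus left out, the GC trend removed in 20 bins, and each replicate left out. Scaling factors came from edgeR 4.0.16 and DESeq2 1.42.0 in R 4.3.3. Other steps used Python 3.11.15, numpy 2.4.6, pandas 2.3.3, scipy 1.17.1, Biopython 1.88 and matplotlib 3.10.9. The calculation of the ratio was checked on simulated counts with counting error only. That check tells nothing of the spread between real libraries.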

Additional observations from a re-analysis of the deposited data

How the results depend on the processing

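The 25 named genes gave 97 values under the alternatives run for single genes. These were TPM, posterior mean counts, pseudogenes included and the highest gene of each locus left out. In each the called genes kept their direction and side of 2-fold and the others stayed inside their interval. Such settings change the use of these genes little by construction, so that outcome was nearly fixed in advance. The GC trend was not removed for single genes. At a minimum of 50 fragments only 2 V genes beyond 2-fold were left, because Ighv8-5 and Igkv4-74 were no longer tested. Genes gained were Ighv1-5 in TPM, Igkv10-94 without the highest gene of each locus and Igkv7-33 at a minimum of 10 fragments. With 10 fragments as the minimum 1 family, Igkv7, lay beyond 2-fold, and without the highest gene of each locus also 1, Igkv10. Left without Igkv1-88, Igkv1 turned to -0.35 on the log2 scale. The heavy log2 ratio was 0.27 with totals free of mitochondrial and muscle genes and 0.67 with the GC trend removed. For kappa it was -0.25 and 0.29 under these settings, 0.0163 with DESeq2 size factors and 0.0074 in TPM, and for lambda 0.34 with the GC trend removed; the cause was not tested. The mean ratio of kappa to lambda was 10.8 in TPM and 20.7 without the highest genes, since that removes Iglv1. Counted above 10 fragments in both libraries, 69 members were detected. The effective number of heavy genes was 53.3 in TPM, 53.4 with pseudogenes and 51.5 without the highest gene. Without that gene the J-nearest block held 31.3% of heavy and 36.5% of kappa fragments. Over all members, heavy and kappa rho were 0.85 and 0.88 and r 0.85 and 0.86. Over members with at least 20 fragments, rho was 0.60 and 0.68 and r 0.49 and 0.66. With 5 fragments added r was 0.73 and 0.83, and in TPM the heavy rho was 0.64. Each replicate alone gave the ranges 28.6 to 36.5% for the heavy share, 10.02 to 10.2 for kappa to lambda, 130 to 141 members detected, 179 to 260 TPM for heavy, 459 to 461 TPM for kappa and 42.67 to 42.75 TPM for lambda genes, and effective numbers of 50.8 to 51.0 for heavy and 44.8 to 49.9 for kappa, with 32.6 to 38.0% and 33.1 to 35.7% in the J-nearest blocks. No paired analysis was possible because there is only 1 group. Depth limits the values of single genes: the tested V genes had a median of 54 fragments over both libraries.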
